A study of Bos taurus with 179 samples.

Results

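The genes described here had counts in most of the smallest bovine oocytes and in a minority of the oocytes of every larger size group, and they were selected on those raw counts. A gene was taken when more than 50% of the oocytes < 60 μm in diameter had at least 1 count and when 0 counts were found in 50% or more of the oocytes of each of the 7 larger size groups. This rule was met by 97 genes, of 17969 gene IDs with a count. FSHR, the receptor of follicle-stimulating hormone in granulosa cells, met it and was left out, and the granulosa genes GATM, HSD17B1 and AMHR2 were to be left out as well but did not meet it. The remaining 96 genes are the members. Of the members, 49 are among the 83 IDs that the study lists for its smallest group, so the remainder of either list is not shared. Of the 96, 30 carry a gene symbol and 66 are given here by their Ensembl ID. Symbols came from shortened copies of the study's supplementary lists, so this division, and the number of family or marker genes found by symbol below, follow from those copies and not from the study's own naming.

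An oocyte begins to grow when its primordial follicle is activated, and it builds up a store of maternal mRNA while it grows. It is joined to its granulosa cells by fine cellular bridges. When the RNA of single cells is sequenced, a transcript present in few copies can be captured in one cell and missed in the next.

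Single oocytes of Bos taurus came from abattoir ovaries, and no treatments were compared. Fully grown oocytes were aspirated from surface follicles, and growing ones were freed by slicing the cortex. The medium for the growing ones held cilostamide and heparin, so the way of collection differed along the size axis. After denuding and a diameter measurement, the poly(A) RNA of each was amplified with Smart-seq2 and sequenced in 1 of 2 library replicates. Replicate 1 was read at 150 bp and replicate 2 at 75 bp, and the labels name no animal, breed or age. The oocytes that the study analysed were 21 oocytes < 60 μm, 25 of 60–69 μm, 23 of 70–79 μm, 24 of 80–89 μm, 21 of 90–99 μm, 18 of 100–109 μm, 19 of 110–119 μm and 14 > 120 μm. Their totals ranged from 277126 to 8038061 counts, with a median of 2563430 in the oocytes < 60 μm and of 1739610 in the larger ones. The groups also differed in library replicate: 18 of the 21 oocytes < 60 μm were in replicate 2, whereas of the larger oocytes 94 were in replicate 1 and 50 in replicate 2.

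The libraries matched their label as oocytes. The paired oocyte genes BMP15, BTG4, AURKC and CPEB1 had counts in every analysed oocyte. The 6 granulosa genes with a symbol (FSHR, AMHR2, HSD17B1, GATM, CYP11A1 and GATA4) summed to a median of 14.9 CPM (counts per 1000000 counts of the oocyte) in oocytes < 60 μm (0.69 to 67.5), 10.9 CPM at 60–69 μm, 12.5 CPM at 70–79 μm and 1.23 CPM > 120 μm. Within replicate 2 it was 20.8 CPM < 60 μm and 4.55 CPM in the larger oocytes, and within replicate 1 13.5 and 6.43 CPM. These sums include FSHR, which met the rule. The 10 theca and stroma genes had a median sum of 10.2 CPM < 60 μm and 23.1 CPM in the larger oocytes, but 10.2 and 14.6 CPM within replicate 2 (12.6 and 29.4 CPM within replicate 1), and the 3 endothelial genes (CDH5, CD34, CAV1) had a median of 0 in every size group. Of the 14 blood and immune genes with a symbol, the median sum was 2.38 CPM < 60 μm and 3.69 CPM in the larger oocytes, and 2.13 and 2.24 CPM within replicate 2.

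No member was seen only below 60 μm. Every member had a count in at least 9 and in at most 59 of the larger oocytes, and 80 of the 96 had a count in at least 1 oocyte of each of the 7 larger groups. Over the members, the median share of oocytes with a count was 57.1% < 60 μm, 40.0% at 60–69 μm, 30.4% at 70–79 μm, 33.3% at 80–89 μm, 19.0% at 90–99 μm, 16.7% at 100–109 μm, 26.3% at 110–119 μm and 21.4% > 120 μm. The share was therefore lower step by step up to 100–109 μm apart from 80–89 μm, with no stop at 60 μm, and the group next to the smallest oocytes was the one that came nearest to them for 46 of the 96 members (ties counted in each group). As these shares chose the members, no test was made of them.

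The members sat close to the threshold. A count was found in 11 of the 21 smallest oocytes, the fewest the rule admits, for 36 members and in 12 for another 25, and no member had a count in more than 19. The gap between the share < 60 μm and the highest share in a larger group had a median of 14 percentage points, was at most 10 points for 32 members and exceeded 30 points for 12. Just inside the threshold, ENSBTAG00000000593, ENSBTAG00000000795 and ENSBTAG00000001075 had counts in 52.4% of the smallest oocytes, and ENSBTAG00000004406, ENSBTAG00000005063 and ENSBTAG00000005917 reached 50% at 80–89 μm. Just outside it, ENSBTAG00000000242, CCDC102A and LGR6 had counts in 10 of the 21 smallest oocytes, a value shared by 60 genes that were low in all larger groups. ENSBTAG00000008538, ENSBTAG00000020824 and ENSBTAG00000010277 were left out because 52% of the 60–69 μm oocytes had a count, although 90.5%, 85.7% and 76.2% of the smallest oocytes did.

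**Figure D1:**
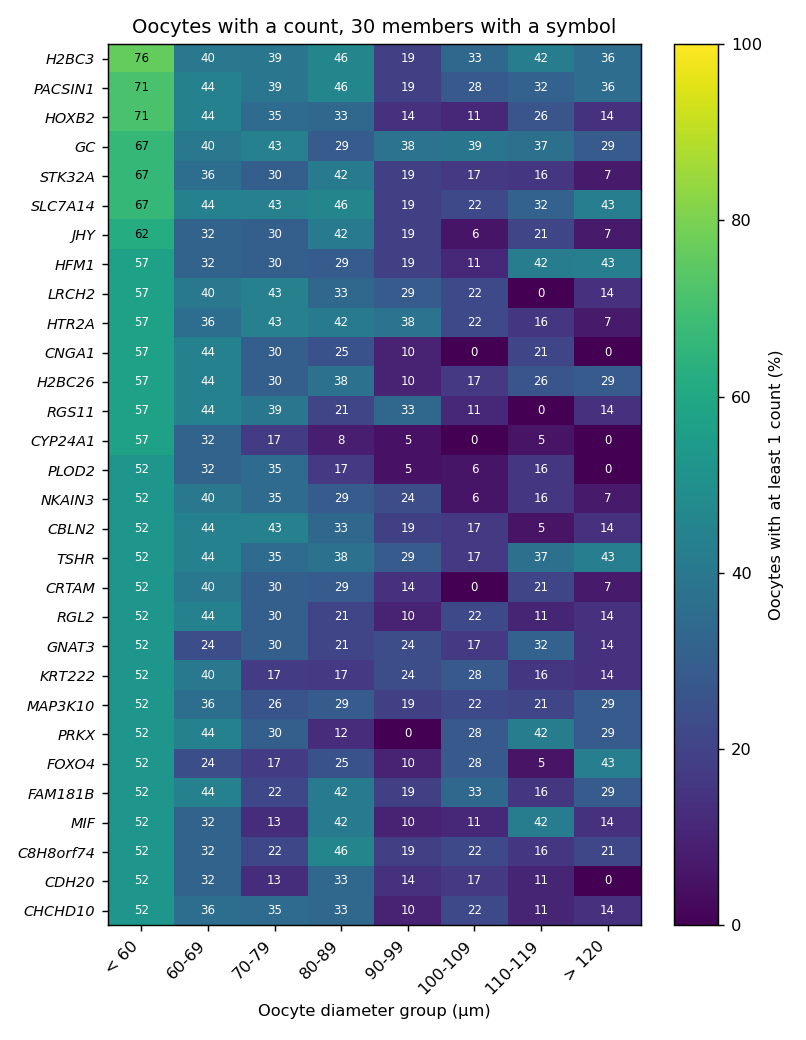
Percentage of oocytes with at least 1 count for the 30 members with a symbol (rows, ordered by the share below 60 μm) in the 8 diameter groups (columns, in μm); colour and printed numbers give the same percentage. The first column lies between 52 and 76% and every other cell at or below 46%, because the members were chosen in this way, while many cells at 60–69 μm stand between 32 and 44%.

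The counts behind these shares were few. The median count of a member over the 21 smallest oocytes was 1 for 61 members and at most 9 for any. Together the members took 0.0160% of all counts < 60 μm and 0.00548% in the larger oocytes. Their mean level in the smallest oocytes ranged from 0.275 to 5.74 CPM, with a median of 1.23 CPM. CPM is not corrected for transcript length, so levels were compared between groups of oocytes and not between genes. The ratio of the mean level < 60 μm to the mean of the 7 larger group means had a median of 3.22 and exceeded 2 for 80 members. Over all genes the median ratio was 0.947. The members' ratios come from the counts that chose the members, and they pool the 2 library replicates. It was below 1 for 1 member, ENSBTAG00000005063, at 0.827, so its mean level was higher in the larger oocytes although a smaller share of them had a count.

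HFM1, a DNA helicase of meiotic crossover formation, had counts in 12 of the 21 smallest oocytes, from 0 through a median of 0.343 to a highest value of 70.5 CPM. In the larger groups no oocyte exceeded 4.34 CPM. The mean was 5.74 ± 15.9 CPM (SD, n = 21), 27.6 times the mean of the larger groups, but 1 oocyte held 58.0% of the HFM1 counts < 60 μm and without it the ratio was 12.1. HFM1 was present in 42.1% of the 110–119 μm and 42.9% of the > 120 μm oocytes, more than in any group between 60 and 109 μm, at group means of 0.26 and 0.31 CPM. JHY, a gene of motile cilia, had counts in 13 of the 21, with a median of 0.762 and a highest value of 11.3 CPM.

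PLOD2, a lysyl hydroxylase that modifies collagen for cross-linking, was one of the 5 members of the matrix, adhesion and cytoskeleton. Its count was 0 in 10 of the 21 smallest oocytes, its median was 0.567 CPM and its highest value 29.4 CPM, with a mean of 5.70 ± 8.28 CPM (SD, n = 21). The mean was 0.778 CPM at 60–69 μm, 1.80 CPM at 70–79 μm and at most 0.32 CPM in each larger group. With counts summed per size group and replicate, the excess was seen in replicate 2 only. There PLOD2 stood at 6.17 CPM < 60 μm and at 0 to 2.62 CPM in the larger groups. In replicate 1 it stood at 0.372 CPM and at 0 to 0.489 CPM. PLOD2 had 0 counts in all 14 oocytes > 120 μm, which allows a share of up to 21.4%. This limit and those below take the oocytes as independent, cover counting error only, and concern oocytes with a count, not oocytes that express the gene. LRCH2, a leucine-rich repeat protein with a calponin homology domain, reached 25.7 CPM < 60 μm, but highest values of 18.5 to 20.6 CPM were found in each group from 60 to 99 μm. PACSIN1, which bends membranes during endocytosis, was in 15 of the 21 smallest oocytes, whereas CDH20, a type II cadherin, and KRT222, a keratin-like gene, were each in 11. Of the other 14 cadherins with a symbol, none met the rule, and CDH1, CDH3, CDH7 and CDH23 had counts in every oocyte.

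The vitamin D genes among the members were CYP24A1, which inactivates the active hormone, and GC, the carrier protein of vitamin D in blood. CYP24A1 had counts in 12 of the 21 smallest oocytes, with a median of 0.495 and a highest value of 5.86 CPM, and then in 8 of 25, 4 of 23, 2 of 24, 1 of 21, 0 of 18, 1 of 19 and 0 of 14 oocytes of the successive larger groups. Its mean CPM < 60 μm was 14.3 times the mean of the larger groups (10.5 without its highest oocyte). GC had counts in 14 of the 21, all of them in replicate 2, and stayed at 28.6 to 43.5% of oocytes in every larger group. Among the related hydroxylases with a symbol, CYP26B1 was in 23.8% and CYP27A1 in 9.52% of the smallest oocytes.

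Receptors and their partners formed a group of 4. HTR2A, a serotonin receptor, had counts in 12 of the 21 smallest oocytes, with a median of 0.567 and a highest value of 37.2 CPM, and the 90–99 μm oocytes reached 19.5 CPM. TSHR, the receptor of thyroid-stimulating hormone, was in 11 of the 21 (median 0.646, highest 16.9 CPM) and in 42.9% of oocytes > 120 μm. GNAT3, the G protein subunit of taste cells, was in 11 and RGS11, which shortens G protein signals, in 12, and RGS11 had 0 counts in all 19 oocytes of 110–119 μm, which allows a share of up to 15.8%. Of the 3 channel and transport genes, CNGA1, a cyclic nucleotide-gated channel, was in 12 of the 21 (highest value 11.5 CPM) and in none of the 18 oocytes of 100–109 μm or the 14 > 120 μm. NKAIN3, a partner of the sodium pump, was in 11, and SLC7A14, of the cationic amino acid transporter family, in 14.

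The 2 histone genes, H2BC3 and H2BC26, encode H2B. Histone genes have near-identical copies, so reads could be split between them and these counts are uncertain. H2BC3 had counts in 16 of the 21 smallest oocytes, the most of any member with a symbol, at a median of 0.641 and a highest value of 20.5 CPM, and in 19.0 to 45.8% of oocytes in the larger groups. H2BC26 was in 12. Of the other 6 histone genes with a symbol, H2BC7 and H2AC7 fell just short at 47.6% of the smallest oocytes, and H3-5 and H1-2 were above 50% both below and above 60 μm. The transcription factors HOXB2 and FOXO4 were in 15 and 11 of the 21, and the less known gene FAM181B was in 11. Kinases and small GTPase regulators (STK32A, MAP3K10, PRKX and RGL2) were in 14, 11, 11 and 11. CBLN2, a synapse organizer, was in 11, while its relative CBLN4 was in all 21 at a mean of 54.7 CPM and CBLN1 and CBLN3 were each in 4.76%. The cytokine MIF, the lymphocyte receptor CRTAM and the mitochondrial protein CHCHD10 each had counts in 11 of the 21. For CHCHD10 the mean level was 0.432 ± 0.559 CPM < 60 μm (SD, n = 21) and 0.524 CPM at 60–69 μm.

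**Figure D2:**
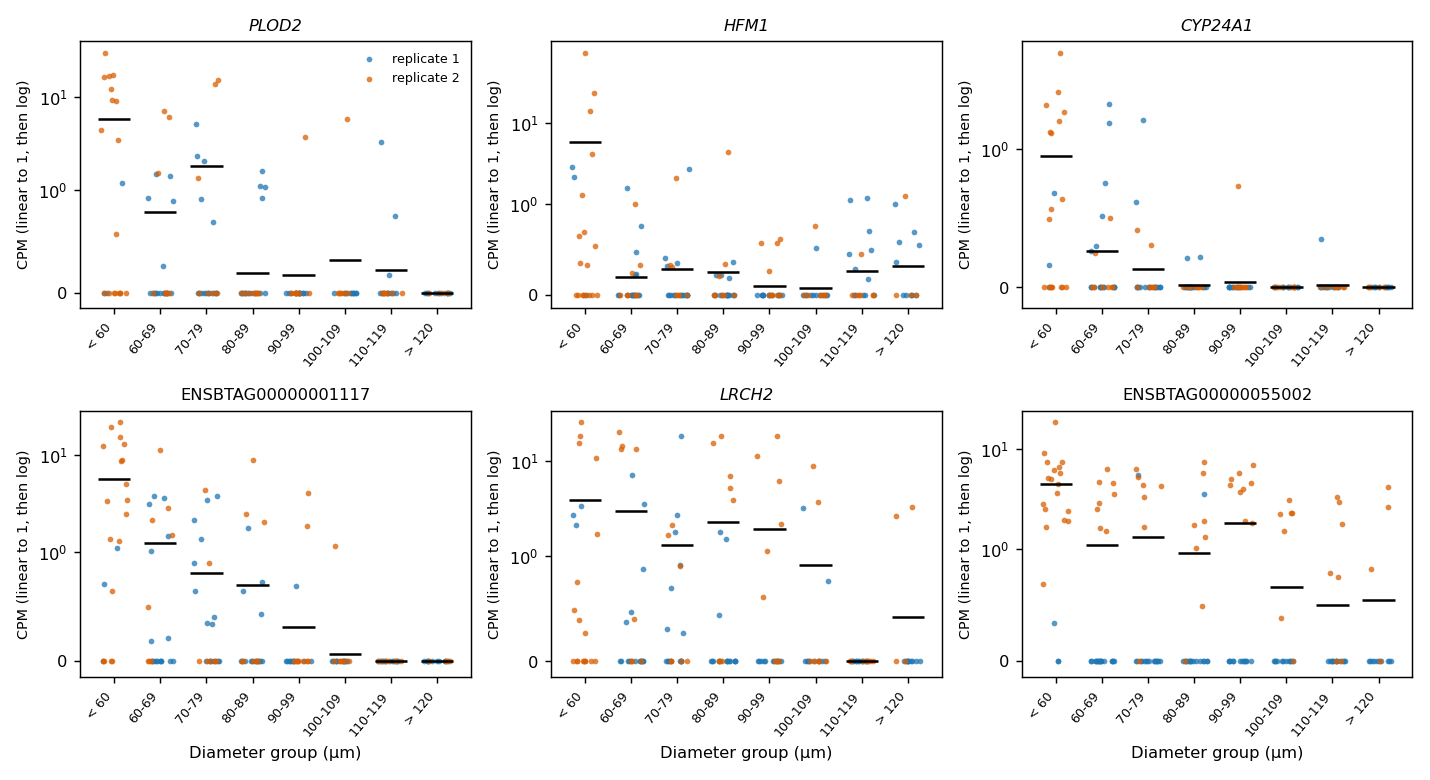
CPM of 6 members in each analysed oocyte by diameter group (μm), on an axis that is linear up to 1 CPM and logarithmic above; blue points are replicate 1, orange points replicate 2 and black bars the group means. Most CYP24A1 points above 0 lie below 80 μm, PLOD2 points above 10 CPM are found < 60 and at 70–79 μm and replicate 1 points of it return at 110–119 μm, whereas the ENSBTAG00000055002 points above 0 are almost all orange in every group.

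Among members without a symbol, the largest gaps in share belonged to ENSBTAG00000052172, in 17 of the 21 smallest oocytes, ENSBTAG00000055002, in 19, ENSBTAG00000048886, in 18, ENSBTAG00000051478, in 16, and ENSBTAG00000046517 and ENSBTAG00000049237, each in 19. For these 6 the share depended on the library replicate. In oocytes of 60 μm and more, ENSBTAG00000055002 had counts in 2 of 94 in replicate 1 and in 44 of 50 in replicate 2. ENSBTAG00000052172 had none in any of the 97 replicate 1 oocytes of any size, which allows a share of up to 3.09%, and was in 62% of the larger replicate 2 oocytes. ENSBTAG00000048886 was in 3.19% and 84%, and none of the 3 replicate 1 oocytes < 60 μm had a count for it. ENSBTAG00000052741 behaved otherwise: it was in all 3 replicate 1 and in 9 of 18 replicate 2 oocytes < 60 μm, against 4 of 94 and 5 of 50 larger ones.

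Because the smallest oocytes came mostly from replicate 2, the shares were also set out within each replicate. In replicate 2, 93 of the 96 members were in a larger share of the 18 oocytes < 60 μm than of the 50 larger ones, with median shares of 55.6% and 32%. In replicate 1 the same held for 90 members, on only 3 oocytes < 60 μm, with medians of 66.7% and 24.5%. It held in both replicates for 87 members. These are the oocytes whose shares chose the members, so the counts are a description and support nothing. Over all 17969 genes with a count, 31.3% and 36.9% had the higher share < 60 μm in replicates 2 and 1. Group by group the difference was weaker: within replicate 2, 66 of the 96 members had a lower share at 60–69 μm than < 60 μm, 78 at 70–79 μm and 92 at 110–119 μm. Of the 96 members, 14 were in more than 50% of the larger oocytes of replicate 2.

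**Figure D3:**
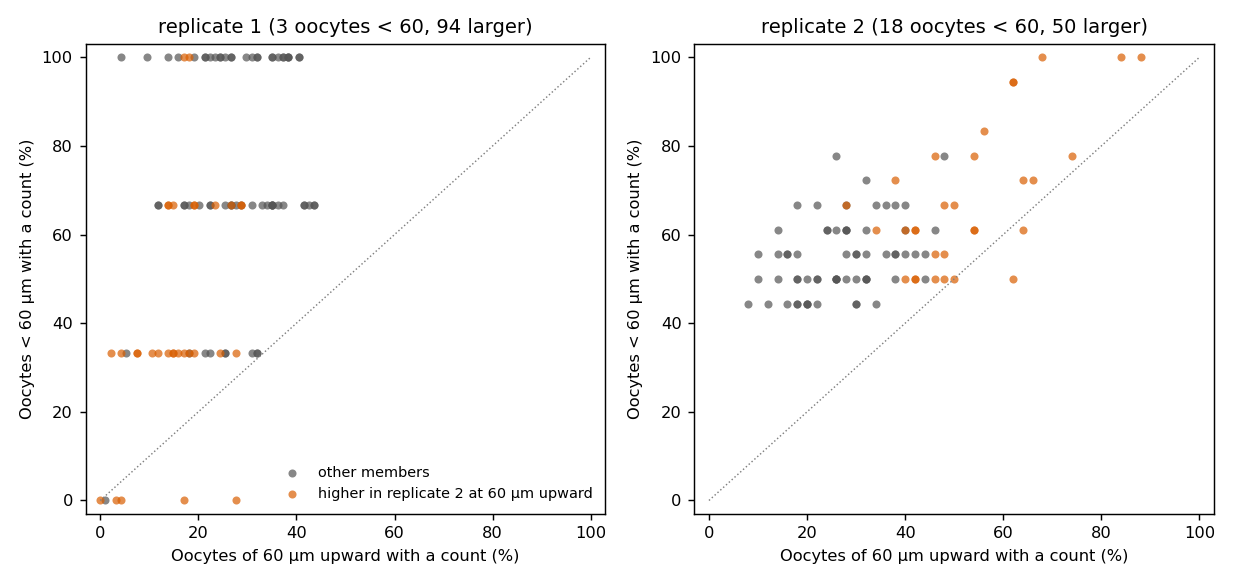
Share of oocytes < 60 μm with a count (vertical, %) against the share of oocytes of 60 μm upward (horizontal, %) for the 96 members, in replicate 1 (left) and replicate 2 (right); the dotted line marks equal shares. Orange members were higher in replicate 2 than in replicate 1 among the larger oocytes. In replicate 2 they reach 88% of the larger oocytes and lie nearer the line than the grey members.

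A direct comparison of the replicates within the larger oocytes left the smallest oocytes out. Counts were summed per size group and replicate, and the 14 sums from 60 μm upward were fitted with size group as a factor. Of the 87 members tested, 31 were higher in replicate 2 and 0 were lower (edgeR quasi-likelihood test, Benjamini-Hochberg adjusted p below 0.05), where 27% of all 13922 genes tested were higher and 31.7% lower. At an unadjusted p below 0.05, 35 members differed, and DESeq2 called 35 higher and 1 lower, beside 3990 and 4635 of all 13922 genes. The counts of these larger oocytes had entered the choice of the members, so the direction is not independent of the rule. The median log2 difference over the members was 1.24, against -0.14 over all genes tested.

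The members with the smallest p in that comparison were all IDs without a symbol. ENSBTAG00000054051 stood at 1.98 to 11.8 CPM in the 7 replicate 2 sums and at 0 to 0.58 CPM in the 7 replicate 1 sums, a log2 difference of 4.53 ± 0.46 (SE, adjusted p = 3.6e-08 by edgeR). ENSBTAG00000048886 stood at 1.57 to 3.00 CPM and 0 to 0.202 CPM (6.37 ± 0.76, adjusted p = 3.8e-07), and ENSBTAG00000055002 at 1.43 to 3.78 CPM and 0 to 0.177 CPM (6.18 ± 0.74, adjusted p = 3.8e-07). For each of the 3 the replicates did not overlap. ENSBTAG00000052172, with 0 counts in replicate 1, was at least 143.9-fold higher in replicate 2 (2.12 CPM pooled, against a floor of 3 counts over all replicate 1 oocytes from 60 μm upward). ENSBTAG00000048939 and ENSBTAG00000031558 differed by 4.31 ± 0.56 and 6.02 ± 0.82 on the log2 scale (adjusted p = 1.1e-06 and 2.0e-06 by edgeR).

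Of the 28 members with a symbol that were tested, 9 were higher in replicate 2, a share near the 27% of all genes tested. JHY had 0.895 to 3.01 CPM in the replicate 2 sums and 0 to 0.273 CPM in the replicate 1 sums, so the replicates did not overlap (log2 difference 4.56 ± 0.66, adjusted p = 5.0e-06 by edgeR). LRCH2 and H2BC26 differed by 3.71 ± 0.76 and 3.62 ± 0.72 (adjusted p = 0.00028 and 0.00020 by edgeR). HTR2A, GC, GNAT3, CBLN2, KRT222 and STK32A were the others, with log2 differences from 1.88 to 3.07. The call for STK32A held in 6 of 17 alternatives and was lost without the filter on low counts and without any 1 of 10 sums (adjusted p up to 0.143 over its alternatives), and that for KRT222 was lost without the replicate 2 sum of 70–79 μm. PLOD2 (1.12 ± 1.19, adjusted p = 0.44 by edgeR), HFM1 (0.31 ± 0.90, adjusted p = 0.79) and HOXB2 (-0.23 ± 0.95, adjusted p = 0.85) did not pass the test. CYP24A1 and CDH20 had too few counts in these sums to be tested. Read length and sequencing run differ together between the replicates and cannot be told apart.

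Sequencing depth also moved with the members. The number of members with a count followed the total count, with a Spearman rho of 0.913 over the 94 larger oocytes of replicate 1, 0.883 over the 50 of replicate 2 and 0.737 over the 21 smallest (descriptions only, since the oocytes of a replicate share a library batch). The smallest oocytes held counts for 35 to 80 members, with a median of 63, and the larger ones for 1 to 65, with a median of 25. The number was therefore also computed for an equal depth of 250000 counts per oocyte, as the number of members expected to keep a count. It was then 14.4 to 32.9 (median 21.4) < 60 μm and 0.441 to 23.4 (median 7.17) in the larger oocytes.

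At equal depth the 2 ranges were set out within each replicate as well. The 3 replicate 1 oocytes < 60 μm stood at 14.4, 18.2 and 18.3 members, and the 17 replicate 1 oocytes of 60–69 μm at 4.09 to 14.7 (median 8.21), with 1 of them inside the range of the smallest. In replicate 2 the smallest oocytes stood at 14.5 to 32.9 (median 22.1) and those of 60–69 μm at 13.4 to 23.4 (median 16.5), which overlap widely. In the larger oocytes the number was lower at larger diameters in both replicates, with a rho of -0.595 over 94 oocytes of replicate 1 and -0.523 over 50 of replicate 2, while in the 21 smallest oocytes the rho with diameter was -0.02. Computed from the same counts that chose the members, the expected share at equal depth was higher < 60 μm than above for all 96, with medians of 21.8% and 7.98%. It exceeded 50% of the smallest oocytes for 1 of them, ENSBTAG00000055002, at 55.8%. In 1 random draw of 250000 counts per oocyte, ENSBTAG00000043962 and ENSBTAG00000048886 met the rule (expected shares of 40.6% and 47.5%) and ENSBTAG00000055002 did not.

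**Figure D4:**
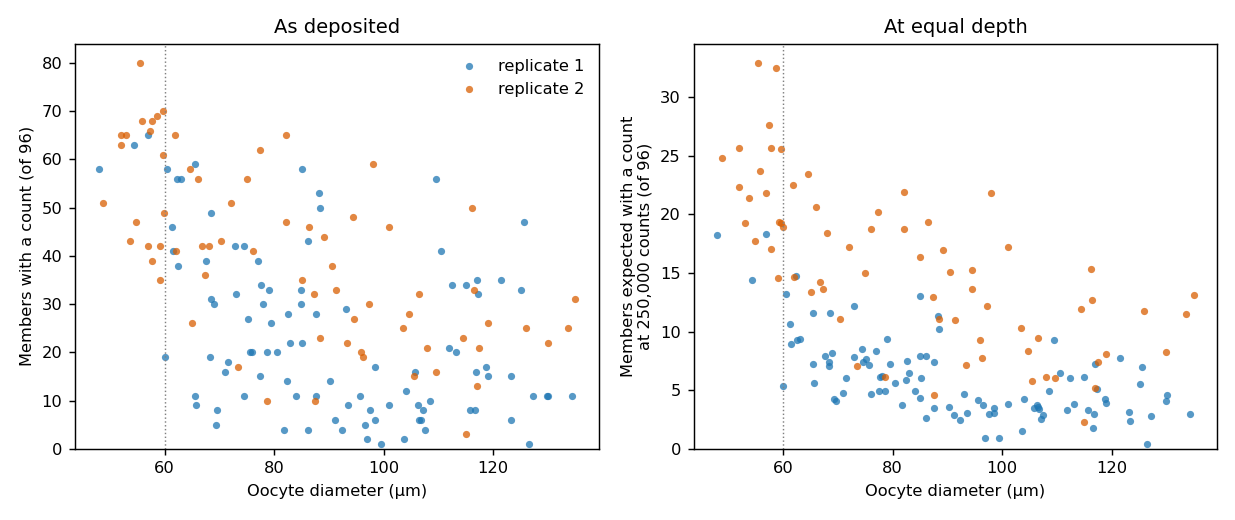
Number of the 96 members with a count in each analysed oocyte against oocyte diameter (μm), from the deposited counts (left) and at an equal depth of 250000 counts per oocyte (right); blue points are replicate 1, orange points replicate 2, and the dotted line marks 60 μm. At equal depth the median is 21.4 members below 60 μm, 10.7 at 60–69 μm and 4.19 at 90–99 μm, and in each size group the replicate 2 median lies above that of replicate 1.

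Of the 6 granulosa genes, GATM alone passed the tests over size groups: it was higher at 60–69 μm than from 70 μm upward (log2 difference 1.86, adjusted p = 0.022 by edgeR) and lower from 110 μm than at 70–109 μm (-2.86, adjusted p = 0.0015). FSHR, HSD17B1 and GATA4 did not pass either, and AMHR2 and CYP11A1 had too few counts. The summed CPM of the 6 had a rho with the number of members expected at equal depth of 0.539 over the 94 larger oocytes of replicate 1, of 0.471 over the 50 of replicate 2 and of 0.145 over the 21 smallest oocytes. FSHR is in this sum and itself met the rule, so the sum is not independent of the choice of the members. CYP11A1, which makes steroids in granulosa and theca cells, and AMHR2 were each in 4.76% of the smallest oocytes, GATM in 85.7% and HSD17B1 in 95.2%. The part of granulosa RNA in the members' counts was not tested.

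Differences among the larger groups, where the rule asked the members to be low throughout, were tested on the 16 sums with the replicate as a block. The counts of these groups had entered the choice of the members, so both comparisons that follow are not independent of the rule. The filter on low counts also saw the sums below 60 μm, and members such as CYP24A1 and CDH20 passed it only with them. Of the 95 members tested, 5 were higher and 0 lower at 60–69 μm than in the mean of the 6 groups from 70 μm upward (edgeR quasi-likelihood test, adjusted p below 0.05), and 2.52% of all 14087 genes tested were higher and 2.01% lower. With the sums of 60 μm upward alone, which kept the smallest oocytes out of the filter, 87 members were tested and 6 were higher and 0 lower, beside 325 and 470 of all 13922 genes, and these 6 held the 5. At an unadjusted p below 0.05, 17 of the 95 and 12 of the 87 differed. Without its replicate 1 sum or its replicate 2 sum, the 60–69 μm group held 1 sum, and no member and hardly any other gene was called. The median log2 difference over the members was then 0.609 and 0.867, against 0.925 with both sums. Fewer members were called without the replicate 2 sum of 110–119 μm, where the median was 0.872. Without the block 0 members were called, as were 0 of all 14087 genes, and 13 members had an unadjusted p below 0.05. DESeq2 called 5 higher and 0 lower.

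The 5 were IDs without a symbol. ENSBTAG00000001117 stood at 0.773 and 2.05 CPM at 60–69 μm (replicates 1 and 2) and at 0 to 2.74 CPM in the sums from 70 μm upward, with 0 in the 4 sums from 110 μm (adjusted p = 0.020 by edgeR). ENSBTAG00000011366 stood at 1.03 and 2.24 CPM and at 0 to 1.44 CPM (adjusted p = 0.025 by edgeR). No fitted difference is given for either, because size groups with 0 counts enter it. ENSBTAG00000011038 stood at 1.74 and 1.67 CPM and at 0 to 1.93 CPM (log2 difference 3.45 ± 0.78, adjusted p = 0.017 by edgeR). The values at 60–69 μm and above overlapped for each of the 3. ENSBTAG00000054051 and ENSBTAG00000049538 differed by 1.96 ± 0.50 and 2.90 ± 0.77 (adjusted p = 0.031 and 0.038 by edgeR), and both reached their highest sums in the replicate 2 oocytes of 60–69 μm, at 11.8 and 4.95 CPM. These calls and that for ENSBTAG00000011366 were lost over all 179 oocytes too, that for ENSBTAG00000054051 also without 1 of 4 sums from 70 μm upward (adjusted p up to 0.997 over its alternatives) and that for ENSBTAG00000049538 without 1 of 4 such sums (up to 0.511). CNGA1 (adjusted p = 0.053 by edgeR) and LRCH2 (adjusted p = 0.069) did not pass the test.

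Between the end of growth and its middle, 0 members were higher and 2 lower in the mean of the 110–119 and > 120 μm groups than in the mean of the 4 groups from 70 to 109 μm, of 95 tested, when 7.08% of all genes tested were higher and 7.68% lower. At an unadjusted p below 0.05, 8 members differed, and DESeq2 called 1 higher and 2 lower, beside 1432 and 1352 of all 14087 genes. With the sums of 60 μm upward alone, 1 was higher and 2 were lower of 87 tested, beside 1286 and 1048 of all 13922 genes. ENSBTAG00000001117 had 0 counts in all 33 oocytes of 110 μm and more and 0.698 CPM pooled over 70–109 μm, so it was at least 17.1-fold lower at the end of growth (floor of 3 counts over the 2 groups together; adjusted p = 0.014 by edgeR). The replicate 2 sum of 80–89 μm held 54 of its counts over 70–109 μm, and without that sum the level was 0.415 CPM and the bound 10.1-fold. Its sums stood at 0.219 to 2.74 CPM from 70 to 89 μm and at 0 to 0.539 CPM from 90 to 109 μm. The level was thus already lower before 110 μm. LRCH2 had 0 CPM in 3 of the 4 sums from 110 μm and 1.34 CPM in the fourth, against 0 to 7.56 CPM from 70 to 109 μm (adjusted p = 0.015 by edgeR). The values overlapped. The call for LRCH2 was lost without the replicate 2 sum of 90–99 μm or of 110–119 μm, that for ENSBTAG00000001117 without the replicate 2 sum of 100–109 μm, and both without the block. Without the block, 11 of all 14087 genes were called higher and 10 lower. With the replicate 2 sum of 110–119 μm left out, 1 member was called.

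Diameter within the smallest oocytes was not used by the rule, but the counts of these oocytes were, and the members tested passed the filter on the same counts. Of the 35 members with enough counts to be tested over the 21 oocytes, 0 were called (edgeR quasi-likelihood test, replicate as a term), as were 0 of all 11246 genes tested (0%). With no gene called, the test told little about the members. At an unadjusted p below 0.05 there were 2 members by edgeR and 3 by DESeq2, which also called none. ENSBTAG00000000593 had the smallest p, with a log2 slope of 4.87 ± 1.81 per 10 μm, followed by LRCH2 with 4.53 ± 1.96 (both adjusted p = 1.00).

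The oocytes that the study did not analyse gave the same measure in samples the rule had not used. The study removed oocytes with few reads, few expressed genes or contamination by mitochondrial genes. There were 14 of them, 5 of which were < 60 μm, and 9 with at least 100000 counts were tested. The 3 tested oocytes < 60 μm all stood apart from the analysed ones. A429 and A416 had 1104 and 6850 genes with more than 1 count, against at least 8188 in each analysed oocyte, and A279 had granulosa genes at 306.9 CPM and theca and stroma genes at 410.6 CPM, where the analysed oocytes < 60 μm reached 67.5 and 31.6 CPM. A429, A416 and A279 had counts for 1, 31 and 40 members at totals of 143505, 2487675 and 4933709 counts. The 6 larger ones had counts for 2, 9, 17, 34, 36 and 54 members. Among them C101, with 2 members, and B259, with 9, also had fewer genes than any analysed oocyte (6080 and 5960 with more than 1 count). The smaller and the larger oocytes overlapped, and the highest number of members was found in a 70–79 μm oocyte of replicate 2 with 2399060 counts. By share, 35 members were in more of the smaller and 45 in more of the larger oocytes, and 44 had a count in none of the 3 smaller ones. These shares are not adjusted for depth.

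Of the 8 members with enough counts for a test in these 9 oocytes, 0 were called by edgeR or DESeq2, against 0.495% of all 9905 genes tested called higher and 0.545% lower by edgeR (1.04% in either direction). At an unadjusted p below 0.05 edgeR gave 1 member and DESeq2 0. This was GC, with 0 counts in the 3 smaller oocytes and counts in 2 of the 6 larger ones (adjusted p = 0.34 by edgeR). The other 7 members tested had a log2 difference above 0, each on counts in 1 or 2 of the 3 smaller oocytes, and the median over the 8 was 1.45, against -0.57 over all genes tested. PLOD2 had a log2 difference of 3.26 ± 2.25 (adjusted p = 0.55) and ENSBTAG00000001117 one of 3.20 ± 2.63 (adjusted p = 0.65). HFM1, CYP24A1, LRCH2, H2BC3 and PACSIN1 had a count in none of the 3 smaller oocytes. Without A429 and A279, the oocyte < 60 μm that remains is A416, which has fewer genes than any analysed oocyte and is assumed to vary like the others. In that fit edgeR called 0 of 23 members tested and 27 of all 11050 genes, with 2 members at an unadjusted p below 0.05.

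**Figure D5:**
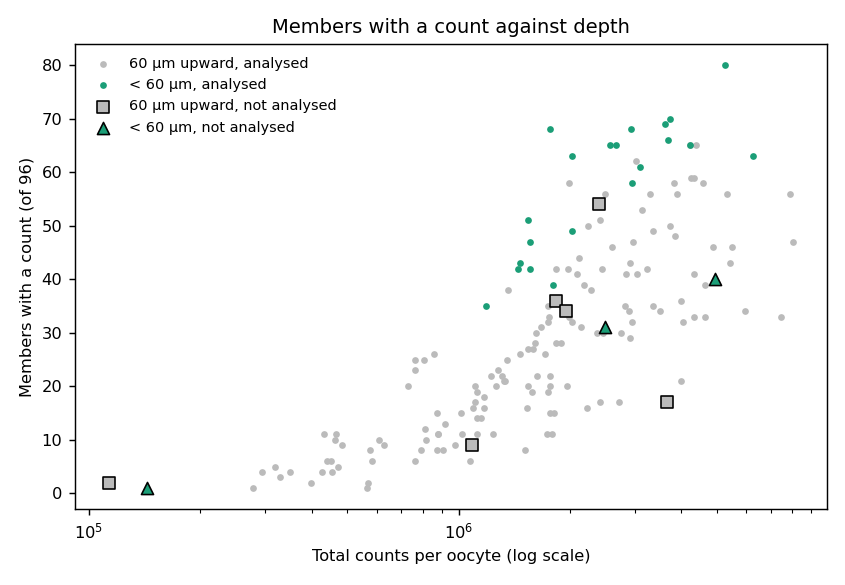
Number of the 96 members with a count against total counts (log scale) per oocyte; small green and grey points are analysed oocytes < 60 μm and of 60 μm upward, and outlined triangles and squares the same sizes among 9 oocytes not analysed by the study. The analysed oocytes < 60 μm lie along the upper edge of the cloud, while the 3 outlined triangles, at 1, 31 and 40 members, lie among the larger oocytes.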

How the data were processed

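The authors trimmed reads with Trim Galore (version 0.6.6), aligned them to the bovine assembly ARS-UCD1.2 with HISAT2, counted them per gene in SeqMonk and deposited raw counts, 1 column per oocyte, without batch correction. The handling of multimapping reads, of strand and of overlapping genes is not given in the sources used here. Counts of repeated gene IDs were summed, 21218 IDs in all, with no column unused, and CPM was the count per 1000000 counts on genes. A symbol was paired with 3608 IDs from shortened copies of the study's lists, and no coordinates or sequences are given because no genome of that assembly was at hand. The members and lists were chosen with earlier results of these data known.

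Sums per size group and replicate were fitted with edgeR (version 4.0.16) with TMM, filterByExpr, the replicate as a block, quasi-likelihood tests and Benjamini-Hochberg adjustment over all genes tested. DESeq2 (version 1.42.0) was an alternative. The replicate number is a library batch stated in the study, and the deviations of replicate 2 sums from their group means correlated at 0.398 to 0.694 over all 28 pairs of size groups. The standard error was the log2 difference divided by the square root of F. Since the oocytes' animals are not given, p-values measure the spread between sums or oocytes only. Floors rest on 3 counts and cover counting error only, as reads carry no molecular identifiers. Thinning to 250000 counts left out no oocyte. Expected numbers and shares at that depth were computed without sampling, and the rule at that depth was applied to 1 seeded random draw. Scripts were tested on simulated data. The tests ran in R (version 4.3.3, limma 3.58.1), the tables were made in Python (version 3.11.15) with pandas 2.3.3 and numpy 2.4.6, and the plots with matplotlib 3.10.9.

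Members were named if they were among the 10 highest by mean CPM or the 10 widest by gap in share, among up to 6 called in each of 5 tests, next to the threshold, or given a role by symbol. The alternatives were DESeq2, RLE normalization, leaving out the block, keeping genes with low counts, all 179 oocytes, single oocytes as units, each sum left out, and for the rule other depths, thresholds, replicates alone and repeated IDs kept apart.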

Additional observations from a re-analysis of the deposited data

How the results depend on the processing

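The number of genes that met the rule and their identity both depended on the processing. In 1 random draw of 250000 counts per oocyte 100 genes met it, and 2 were shared (2.06% of the 97 and 2% of the 100), and with at least 2 counts as detection 111 did, and 35 were shared (36.1% and 31.5%). Over all 179 oocytes 48 genes met it (35 shared, 36.1% and 72.9%), in replicate 1 alone 488 (38 shared, 39.2% and 7.79%) and in replicate 2 alone 54 (18 shared, 18.6% and 33.3%). With 0 counts in more than 50% as the definition of low, 91 met it (91 shared, 93.8% and 100%), and with repeated IDs kept apart 96 of the 97 still met it (99.0% of the 97 and 85.0% of those found). The median gap in share between oocytes < 60 μm and the larger ones was 29.7 percentage points, and it was 39.5 in replicate 1, 24.4 in replicate 2 and 13.9 at equal depth, the last 3 being settings chosen after seeing the data. At 60–69 μm against 70 μm upward, 5 members were called, and 0 without the replicate block, 8 without a filter on low counts, 2 over all 179 oocytes, 3 with single oocytes (of 6 tested) and 0 to 7 with 1 sum left out. In the fit of single oocytes a far larger share of all genes tested was called as well than in the main settings. At 110 μm upward against 70–109 μm, 2 were called, and 0 without the replicate block and 1 to 3 with 1 sum left out. With RLE normalization 1 was higher and 2 were lower. Between the replicates, 31 were called, and 3 with single oocytes (of 3 tested) and 28 to 35 with 1 sum left out. Most of all genes tested between the replicates with single oocytes were called too, higher or lower, so being called there did not set these 3 members apart. The sums of 60 μm upward alone, also chosen after seeing the data, gave 6 and 3 calls in the first 2 comparisons. No call reversed for any member called in the main settings. The cause of these differences was not tested, apart from the fewer members that single oocytes left to test.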
